A study of Mus musculus with 14 samples.

Results

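Ionotropic and metabotropic glutamate receptors carry and tune nearly all fast excitation in the cortex. The 31 genes described here were chosen by symbol as members of these families, with earlier results of these data known, and are 31 of the 24444 genes in each of 2 expression tables. They comprise 4 AMPA receptor subunits (Gria1, Gria2, Gria3, Gria4), the delta subunit Grid1, 5 kainate subunits (Grik1 to Grik5) and 7 NMDA subunits (Grin1, Grin2a, Grin2b, Grin2c, Grin2d, Grin3a, Grin3b). The metabotropic receptors were Grm5 of group I, Grm2 and Grm3 of group II, and Grm4, Grm6, Grm7 and Grm8 of group III. The remaining members were the kainate auxiliary proteins Neto1 and Neto2, the AMPA auxiliary proteins Cnih2, Cnih3 and Shisa9, and the scaffolds Grip1 and Grip2 that bind AMPA subunits.

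AMPA receptors open within a millisecond of glutamate release, NMDA receptors pass calcium when glutamate arrives at a depolarised membrane, and kainate receptors act on both sides of the synapse. Group I metabotropic receptors couple to phospholipase C, whereas groups II and III lower cyclic AMP and are found largely on axon terminals and, for Grm3, on astrocytes. Auxiliary subunits ride with the channels and set their gating, affinity and delivery to the membrane.

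RNA with poly(A) tails was sequenced in 14 libraries from the cortex of mice of 2 models, and the labels do not say whether each library is a separate mouse. In miR29Nestin mice (n = 3 libraries) both genomic clusters of miR-29, miR-29ab1 and miR-29b2c, were floxed and deleted by Nestin-Cre, which acts in neural progenitors and so in the neurons, astrocytes and oligodendrocytes that descend from them but not in microglia, which have another origin. Their controls at postnatal day 40 were miR29WT mice (n = 3 libraries), and the labels do not say whether these carried floxed alleles or Cre. In Dnmt3a-mi5 mice (n = 4 libraries) miR-29 itself was intact, and a CRISPR knock-in in the germline had changed 5 sites of Dnmt3a from TGGTGCT to CACGGCT within its 3′ UTR. Their controls were Dnmt3a-WT mice (n = 4 libraries), both groups aged 4.5 months, so age, kit and genotype all differ between the models. The first comparison asks which receptor transcripts differ without the microRNA, and the second which differ when 1 target alone escapes it.

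MicroRNAs of the miR-29 family share bases 2 to 8, the seed, which pairs with TGGTGCT in the 3′ UTR of a target and usually lowers the level of that transcript. The 3 mature sequences are printed because a site in a receptor gene is defined by them, with the seed in capitals (RefSeq, GRCm38.p6).
miR-29a-3p: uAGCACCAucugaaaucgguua
miR-29b-3p: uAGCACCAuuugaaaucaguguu
miR-29c-3p: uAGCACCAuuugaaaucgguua

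All 31 members had an annotated 3′ UTR (GENCODE M21, GRCm38), and 4 of them, Grik3, Grin2a, Grin2b and Grip1, held 5 exact sites TGGTGCT in the sense strand of their longest one. The sites are shown with their flanks, 5′ to 3′ on the transcript strand, because the members that carry them did not move as 1 group. Capitals mark the match of 7 bases, or of 8 bases where it is followed by the A of TGGTGCTA.
Grik3, chr4:125709653-125709659, plus strand: tcacttttcTGGTGCTgctggaggg
Grin2a, chr16:9571048-9571054, minus strand: ctccccgccTGGTGCTtgcactcag
Grin2b, chr6:135725807-135725813, minus strand: accctgagcTGGTGCTgagaagcat
Grin2b, chr6:135719800-135719806, minus strand: ttttctcttTGGTGCTAttctcata
Grip1, chr10:120075557-120075563, plus strand: atatctacaTGGTGCTAaacaaaaa

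The Grip1 site began at base 40 of a 3′ UTR of 1622 bases, whereas those of Grin2a and Grin2b lay 6773, 6285 and 12292 bases into UTRs of 9929 and 18865 bases. Among all tested genes with an annotated 3′ UTR, 17.9% held a site. A match is a description of the sequence and does not show that the site is used.

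Values are normalised counts, recovered from the deposited variance-stabilised log2 values, and differences are on that log2 scale, which understates the change of genes with few counts. The miR29 libraries held an estimated 9.18 to 14.4 M reads in genes. The Dnmt3a libraries, whose read depth is unknown, held 10.17 to 10.43 M normalised counts. The microRNA genes Mir29a, Mir29b-1, Mir29b-2 and Mir29c are listed at 0 in every library of both tables, so their rows cannot show the deletion. Dnmt3a, a direct miR-29 target, stood at 5275, 5452 and 5859 in miR29Nestin against 1723.5, 1658 and 1605 in miR29WT libraries (log2 difference 1.63, SE 0.05, limma adjusted p = 8.18e-08). In the second model it stood at 2249, 1958, 2163 and 1948 in Dnmt3a-mi5 against 1200.3, 1062, 1085 and 1234 in Dnmt3a-WT libraries (log2 difference 0.70, SE 0.06, limma adjusted p = 0.00155). Both tables carried the markers of cortical excitatory neurons, interneurons and glia, and every marker list had members above 0.

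In miR29Nestin cortex, receptor genes moved in both directions, with more members lower than higher. Of the 29 members tested, Grin2c and Grm2 rose, and Grik3, Grik5, Grin2a, Grin2d, Grin3a, Grm3, Grm7 and Shisa9 fell at an adjusted p under 0.05 (limma, adjusted over 12014 genes), while 19 did not pass. Grin3b and Grm6 lay under the filter on low values and were not tested. Across all genes tested 9.02% were called higher and 10% lower. The share of members higher (2 of 29) was near this background of all genes and the share lower (8 of 29) was above it. Of the 20 tested members spanning over 100 kb, 0 were called higher and 6 lower (30%). Of all 1945 tested genes of that span, 152 were called higher and 382 lower (27.5%). The median member difference was -0.15 against -0.01 for all genes, and 20 of 29 members lay below 0 against 51.5% of all genes. At an unadjusted p under 0.05 there were 16 members, against 33% of all genes.

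**Figure D1:**
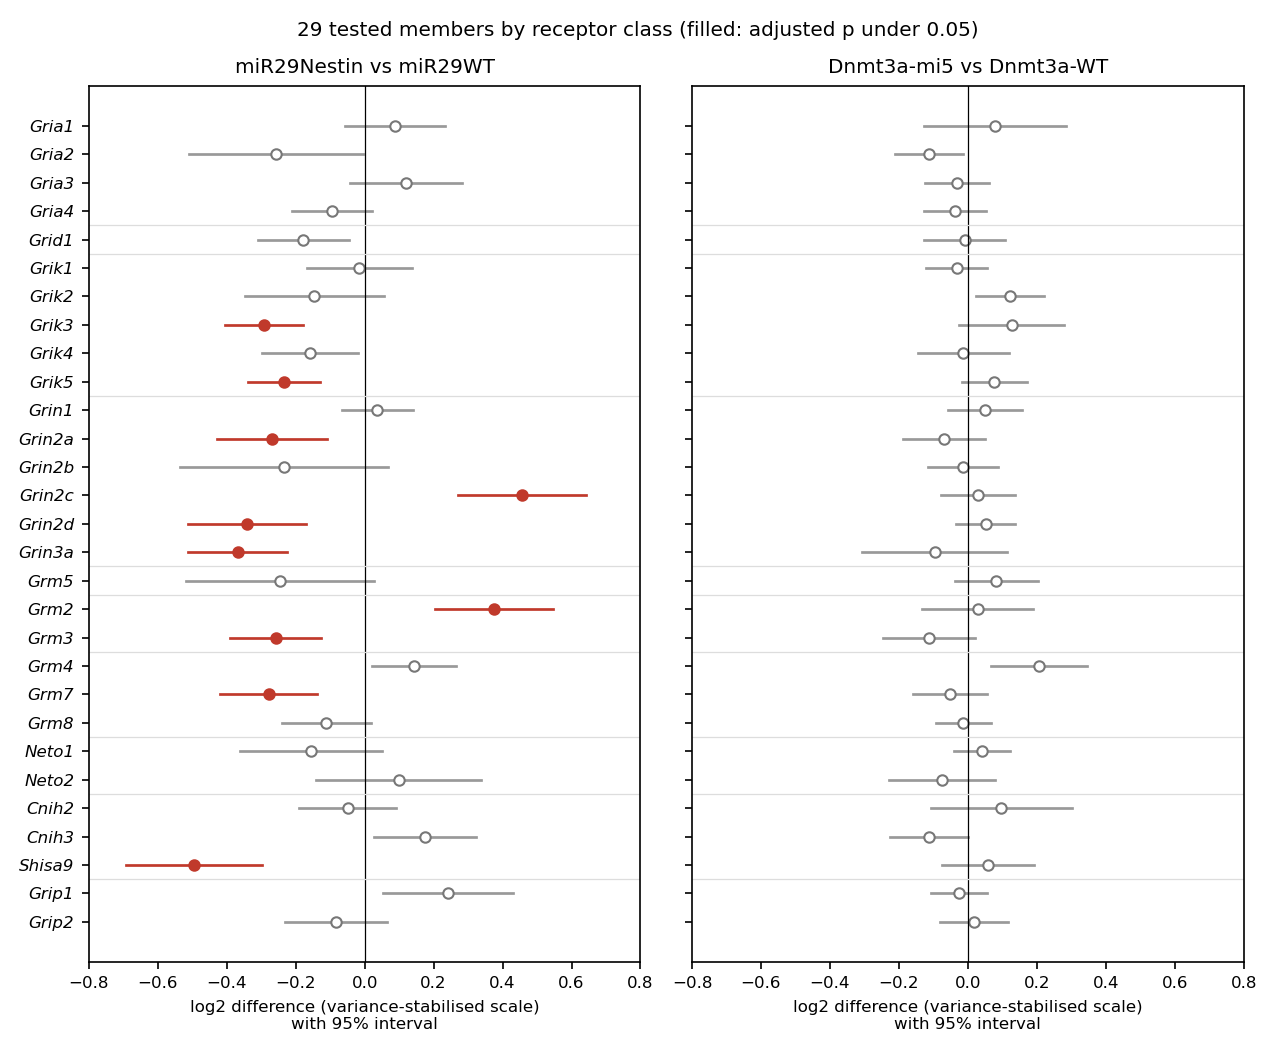
Log2 difference (variance-stabilised scale) of each of the 29 tested members with its 95% interval, mutant minus wild type, in the miR29 mice (left) and the Dnmt3a mice (right). Filled points passed an adjusted p of 0.05. The left panel holds 2 filled points above 0 and 8 below, and the right panel holds none.

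The NMDA subunits showed the largest number of calls of any class, with 1 of 6 tested members higher and 3 lower. That is 66.7%, against 19.1% of all tested genes. By share the group II metabotropic receptors, with 2 of 2 called, stood above them. Grin1, the obligatory subunit of every NMDA receptor, stood at 7214, 7152 and 6885 in miR29Nestin and 6765, 6706 and 7237 in miR29WT libraries. Its difference of 0.04 (95% interval -0.07 to 0.14) did not pass. All 4 calls were of subunits that only some NMDA receptors contain.

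Grin2c (chr11:115249169-115267243, minus strand) encodes GluN2C, which forms receptors with weak magnesium block and is found in astrocytes as well as neurons of the cortex. Its normalised counts were 982, 871 and 979.8 in miR29Nestin against 749, 553 and 631 in miR29WT libraries. All 3 mutant libraries lay above all 3 wild-type ones, a 1.47-fold rise (log2 difference 0.46, SE 0.08, adjusted p = 0.00391), the largest rise among the members tested. Grin2c has no miR-29 site in its 3′ UTR of 402 bases.

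Grin2d (chr7:45831883-45878378, minus strand), the slow GluN2D subunit found mainly in interneurons of the mature cortex, was measured at 109, 120.3 and 118 in miR29Nestin libraries. The miR29WT libraries held 220.5, 169.7 and 159, and the groups did not overlap. The ratio of means was 1.58-fold lower in the mutant (log2 difference -0.34, SE 0.08, adjusted p = 0.0119).

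Grin3a (chr4:49661611-49845744, minus strand) encodes GluN3A, a glycine-binding subunit that lowers calcium entry and is prominent in the young cortex. Its counts were 453, 498 and 515 in miR29Nestin and 623, 700.1 and 717 in miR29WT libraries, again without overlap. The level was 1.39-fold lower (log2 difference -0.37, SE 0.07, adjusted p = 0.00314).

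Grin2a (chr16:9567898-9995560, minus strand) encodes GluN2A, the subunit that joins cortical receptors as synapses mature, and carries 1 miR-29 site. It was at 67.1, 75.2 and 97.9 in miR29Nestin and 122, 118 and 121 in miR29WT libraries, the lowest levels of any called member. Its mutant mean was 0.6655 of the wild-type mean, a fall that passed the test (log2 difference -0.27, SE 0.07, adjusted p = 0.0255) but was the least firm of the 10 calls. It did not pass without miR29Nestin library 1 (adjusted p = 0.075), miR29Nestin library 2 (0.0853), miR29WT library 1 (0.0584), miR29WT library 2 (0.067) or miR29WT library 3 (0.073). With trends of transcript length and GC content removed the difference was -0.13 (adjusted p = 0.197).

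Grin2b, which encodes the GluN2B subunit of young synapses and carries 2 sites, stood at 213, 296 and 381 in miR29Nestin and 330.0, 317 and 476 in miR29WT libraries. The groups overlapped and its difference of -0.24 (SE 0.14, adjusted p = 0.263) did not pass. It passed with the replicate number as a block (adjusted p = 0.035), but not with the block and with trends of transcript length and GC content removed, where it was -0.06 (adjusted p = 0.525). Without miR29Nestin library 1 it was -0.09 (adjusted p = 0.653), and without miR29WT library 3 -0.10 (adjusted p = 0.664). Grin3b was detected at 4.01 to 6.52 in miR29Nestin and 2.19 to 7.77 in miR29WT libraries, too few for a test.

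All 5 kainate subunits lay below 0, and Grik3 and Grik5 passed the test. Grik3 (chr4:125490700-125714173, plus strand) encodes GluK3, a subunit of low glutamate affinity found at presynaptic receptors. Its counts were 1874, 1838 and 1797 in miR29Nestin against 2172, 2336 and 2362 in miR29WT libraries. The groups were far apart relative to their spread, and the level was 1.25-fold lower (log2 difference -0.29, SE 0.05, adjusted p = 0.00288), the smallest adjusted p of any member. The fall occurred in a transcript that carries a miR-29 site.

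Grik5 (chr7:25009849-25072346, minus strand), the high-affinity GluK5 subunit that needs a partner to form a channel, was the most abundant kainate subunit. Its counts were 2932, 2726 and 2886 in miR29Nestin and 3388, 3338 and 3413 in miR29WT libraries. This fall of 1.19-fold was small but larger than the spread between libraries (log2 difference -0.23, SE 0.05, adjusted p = 0.00639).

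Of the other kainate subunits, Grik4, a second high-affinity subunit, stood at 322, 292 and 342 against 385, 381 and 355, without overlap but short of the threshold (difference -0.16, SE 0.06, adjusted p = 0.104). Grik2, the main pore-forming GluK2 subunit, stood at 399, 463 and 589 against 538, 548 and 556 (difference -0.15, SE 0.09, adjusted p = 0.3). The 3 mutant libraries of Grik2 were widely spread, and 2 of them set the size of the difference. It was -0.26 (adjusted p = 0.0249) without miR29Nestin library 3, -0.05 (adjusted p = 0.722) without miR29Nestin library 1 and -0.04 (adjusted p = 0.734) with the length and GC trends removed. Grik1 was nearly level (difference -0.02), and neither auxiliary protein, Neto1 (-0.16) nor Neto2 (0.10), passed.

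The group II receptors Grm2 and Grm3, which share a ligand profile and a signalling route, moved in opposite directions. Grm2 (chr9:106643095-106656082, minus strand), an autoreceptor of glutamate terminals, stood at 1534, 1365 and 1265 in miR29Nestin and 1142, 942 and 1002.5 in miR29WT libraries. All mutant libraries lay above all wild-type ones, a 1.35-fold rise (log2 difference 0.38, SE 0.08, adjusted p = 0.00711). Grm3 (chr5:9485541-9725170, minus strand), made by astrocytes and neurons, stood at 722, 652 and 622 against 839, 809.7 and 833. It was 1.24-fold lower without overlap (log2 difference -0.26, SE 0.06, adjusted p = 0.013), and did not pass without miR29Nestin library 2 (adjusted p = 0.0537).

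In group III, 1 of 3 tested members passed. Grm7 (chr6:110645581-111567230, plus strand), a low-affinity receptor placed at the release site, stood at 544, 578 and 633 in miR29Nestin and 796, 717 and 723 in miR29WT libraries. Its level was 1.27-fold lower with no overlap (log2 difference -0.28, SE 0.06, adjusted p = 0.0122). Grm4, another presynaptic receptor, stood at 569, 554 and 586 against 483, 504 and 515, higher in every mutant library but short of the threshold (difference 0.14, SE 0.06, adjusted p = 0.0971). It passed with the length and GC trends removed (adjusted p = 0.043). Grm8 lay lower without passing (-0.11), and Grm6, a receptor of retinal bipolar cells, did not exceed 2.00 normalised counts in any of these 6 libraries.

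Grm5, the group I receptor that drives calcium release in pyramidal neurons, stood at 655, 987 and 1089.9 in miR29Nestin and 1124, 1087 and 1062 in miR29WT libraries. Library 1 of the mutant was far below the other 5, and the difference of -0.24 (SE 0.12, adjusted p = 0.198) did not pass. Without miR29Nestin library 1 it was -0.06 (adjusted p = 0.53), without miR29Nestin library 3 it was -0.37 (adjusted p = 0.0419), and with the length and GC trends removed it was -0.15 (adjusted p = 0.291). A term for Y-linked reads gave -0.33 (adjusted p = 0.0442).

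None of the 4 AMPA subunits passed. Gria1, which forms receptors recruited during potentiation, differed by 0.09 (95% interval -0.06 to 0.23), Gria3 by 0.12 (-0.04 to 0.28) and Gria4 by -0.09 (-0.21 to 0.02). Gria1 passed only with the replicate number as a block and the length and GC trends removed as well (0.12, adjusted p = 0.0355). Gria2, whose edited form makes receptors impermeable to calcium, stood at 2603, 3514 and 3832 in miR29Nestin and 3546, 4138 and 4194 in miR29WT libraries. Its difference of -0.26 (SE 0.11, adjusted p = 0.146) passed with the replicate number as a block (adjusted p = 0.00673), with a term for Y-linked reads (0.0185) and without miR29Nestin library 3 (-0.36, adjusted p = 0.0346). It was smaller and did not pass without miR29Nestin library 1 (-0.10, adjusted p = 0.391) or with the length and GC trends removed (-0.14, adjusted p = 0.168), and passed at that size with the block as well (adjusted p = 0.0221). Gria3 passed at 0.21 without miR29Nestin library 1 (adjusted p = 0.0158) and at 0.17 with the trends removed (adjusted p = 0.0433), and was 0.07 without miR29Nestin library 3 (adjusted p = 0.571) and 0.08 without miR29Nestin library 2 (adjusted p = 0.601).

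The AMPA auxiliary protein Shisa9 showed the largest fall of any member on the variance-stabilised scale, whereas by the ratio of mean counts the fall of Grin2d was larger (1.58-fold). Shisa9 (chr16:11984113-12270902, plus strand), also called CKAMP44, slows the recovery of AMPA receptors from desensitisation. It stood at 529.6, 742 and 637 in miR29Nestin against 884, 1012.5 and 988 in miR29WT libraries. The groups did not overlap, and the level was 1.51-fold lower (log2 difference -0.49, SE 0.09, adjusted p = 0.00351). The cornichons, which escort AMPA receptors from the endoplasmic reticulum, did not pass: Cnih2 differed by -0.05, and Cnih3 by 0.17 (SE 0.07, adjusted p = 0.0967). Cnih3 stood at 1296, 1200.5 and 1092 against 1081, 1073 and 961, without overlap. It passed with the replicate number as a block (adjusted p = 0.0265) and without miR29Nestin library 3 (adjusted p = 0.035).

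Among the remaining members, the scaffold Grip1 held the site nearest to a stop codon and lay on the higher side. Its counts were 234, 267 and 331 in miR29Nestin and 187, 219 and 226 in miR29WT libraries, which did not overlap (difference 0.24, SE 0.09, adjusted p = 0.0733). It passed with the replicate number as a block (adjusted p = 0.0202), with the length and GC trends removed (0.0225) and without miR29Nestin library 1 (0.0271), and was 0.15 without miR29Nestin library 3 (adjusted p = 0.202). The related Grip2, with no site, differed by -0.08. Grid1, a subunit that links to presynaptic neurexin through cerebellins, stood at 541, 527 and 531 against 597, 601 and 679 (difference -0.18, SE 0.06, adjusted p = 0.0618) and passed with the block (adjusted p = 0.0467).

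Groups did not overlap for 5 members on the higher side and 12 on the lower side, 17 of 29 in all, against 18.6%, 18.7% and together 37.3% of all tested genes. With the replicate number as a block, 4 members were called higher and 11 lower, beside 1409 and 1628 of the 12014 genes tested, up from 1084 and 1205. With the length and GC trends removed the members numbered 5 and 7, beside 1269 and 1241 genes. Without miR29Nestin library 1 they numbered 4 and 7, beside 950 and 1010 of 12008 genes.

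**Figure D2:**
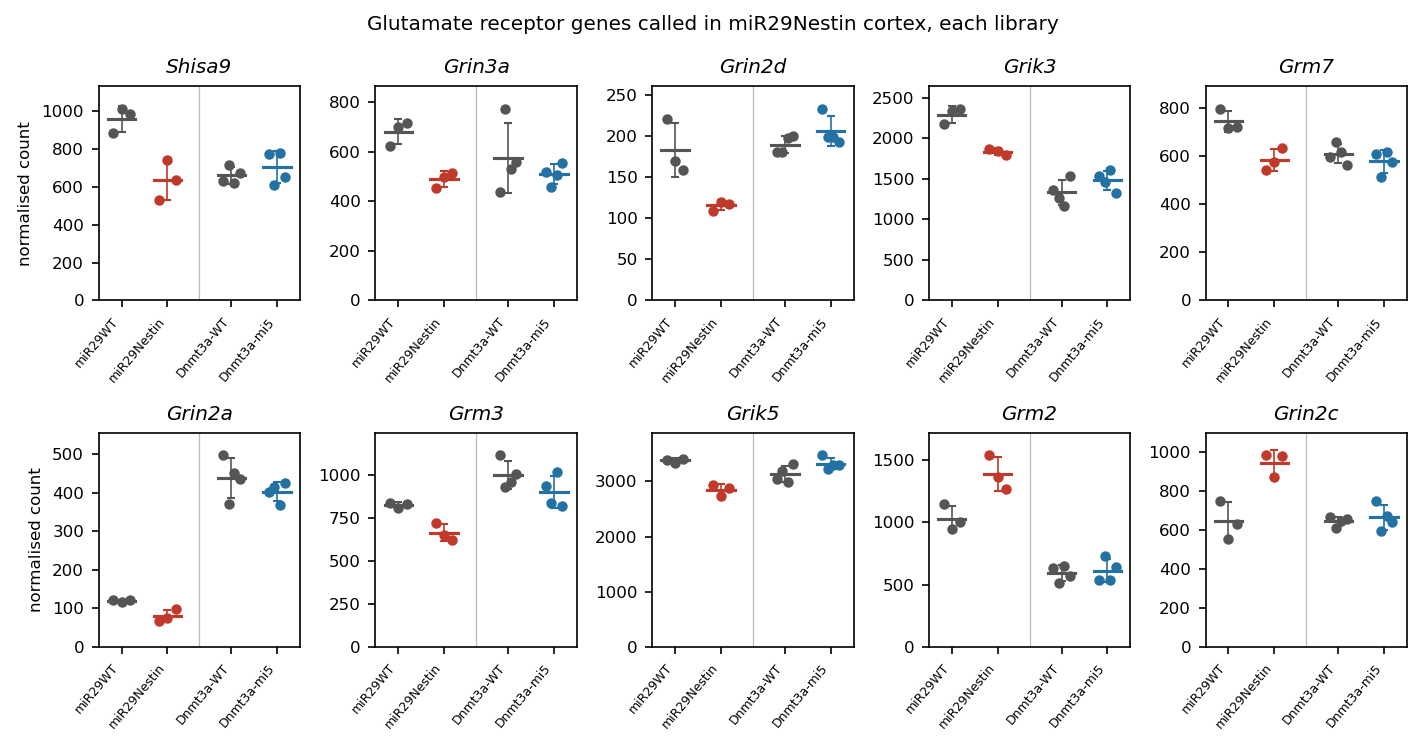
Normalised count of each library for the 10 members called in the miR29 mice, with the group mean (bar) and SD (whiskers), in both models. Tables were normalised separately, so heights are to be compared only on the same side of the vertical line. The miR29 groups do not overlap in any of the 10 panels, and the Dnmt3a groups overlap in all 10.

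The 4 members with a miR-29 site lay on both sides of 0, with Grik3 (-0.29) and Grin2a (-0.27) called lower, Grin2b at -0.24 and Grip1 at 0.24. Over all tested genes with an annotated 3′ UTR, 32.2% of those called higher and 14.7% of those called lower held a site. Neither of the 2 members called higher held one, and 2 of the 8 called lower did. Both of those, Grik3 and Grin2a, have a longest transcript of 8 kb or more. Of all tested genes with transcripts of that length and an annotated 3′ UTR, 39.2% held a site.

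Markers of other cell types were read beside these results. Of all tested genes, 9.02% were called higher and 10% lower. Of 6 excitatory neuron markers 5 were called lower in miR29Nestin cortex, among them Neurod2 (log2 difference -0.34, adjusted p = 0.00494). Their summed count was 33435 to 38159 against 43540 to 46182, without overlap. Of 6 astrocyte markers 2 were higher and 1 lower, and their sum was 13512 to 13801 against 12532 to 13336, also without overlap. Gfap (0.54, adjusted p = 0.000198) and Gja1 (0.38, adjusted p = 0.00135) were the 2 that rose. Interneuron markers split, 2 higher and 2 lower of 7, with sums of 10925 to 12014 against 11086 to 11908. Pvalb rose (0.78, adjusted p = 4.29e-05) and Sst fell (-0.48, adjusted p = 0.00781). Oligodendrocyte precursor markers summed to 2588 to 2703 against 2153 to 2387, without overlap, with 1 of 4 higher. Striatal markers overlapped at 3971 to 8753 against 4376 to 7636. Of 5 oligodendrocyte markers 2 were higher, as were 2 of 3 tested fibroblast markers, with overlapping sums for both lists. Of 2 tested hippocampal dentate granule markers 1 was lower (limma adjusted p = 0.0444), with overlapping sums. No list was at 0, and the part of any cell type in the receptor differences was not tested. In bulk tissue fewer cells of a type and less RNA per cell cannot be told apart.

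The other genes of the glutamate synapse were also lower more often than higher. Of 50 such genes tested, 6 were called higher and 20 lower, 52% against 19.1% of all tested genes, with a median difference of -0.14. The numbers were 5 and 17 without miR29Nestin library 1, 3 and 14 without miR29Nestin library 2, 2 and 12 without miR29WT library 2, and 3 and 13 without miR29WT library 3. Postsynaptic scaffold and signalling genes held 5 called lower and 0 higher of 10, among them Shank3 (-0.49, adjusted p = 0.000212), which joins receptor complexes to actin. Receptor trafficking genes held 2 lower and 2 higher of 8. Dlg4, which encodes PSD-95, the protein that anchors NMDA and AMPA receptors, fell by 0.33 (adjusted p = 0.000683).

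Of 16 further AMPA auxiliary and assembly genes, 8 were lower and 1 higher. Frrs1l, needed for assembly of AMPA receptors, fell by 0.61 (adjusted p = 0.00159) and Olfm1, a secreted AMPA receptor partner, fell by 0.39 (adjusted p = 0.000425). The extracellular organisers had 3 lower and 1 higher of 8: Cbln2, the cerebellin that bridges neurexin to delta receptors, rose (0.64, adjusted p = 0.000249), and Nptxr, the neuronal pentraxin receptor that clusters AMPA receptors, fell by 0.37 (adjusted p = 0.000691). Transport genes were split, 2 higher and 2 lower of 8, with the vesicular transporter Slc17a7, also 1 of the excitatory markers, lower (-0.27, adjusted p = 0.00294).

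Receptor genes are unusually long, and gene span was related to the difference over all genes in both models. The miR29 mice are described first. The 8 members called lower had a median span of 232 kb, from 46.5 to 922 kb, whereas Grm2 and Grin2c spanned 13.0 and 18.1 kb. Of the 20 tested members over 100 kb, 16 lay below 0 with a median of -0.17. All 1945 tested genes over 100 kb had a median of -0.07 with 66.6% below 0, and the 5651 genes under 25 kb a median of 0.02. Exceptions among long members were Grip1 (633 kb), Gria3 (278 kb), Gria1 (319 kb) and Cnih3 (108 kb), which lay above 0. In the Dnmt3a mice 63.2% of the 1749 tested genes over 100 kb lay below 0 (median -0.02). Of the 4527 genes under 25 kb, 40.1% did (median 0.01). Below 0 there lay 14 of the 20 members over 100 kb, 1 of 6 from 25 to 100 kb and 0 of 3 under 25 kb.

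**Figure D3:**
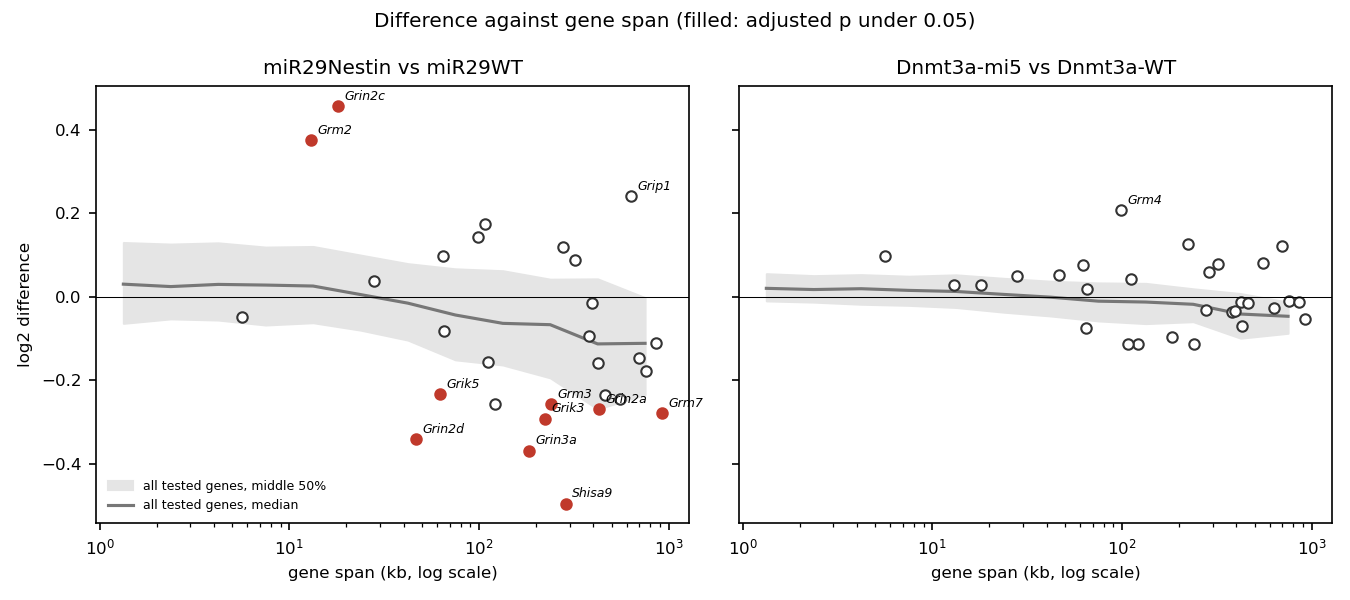
Log2 difference of each tested member (points) against the span of its gene in kb (log scale), with the median (line) and middle 50% (band) of all tested genes. In the miR29 mice (left) the line falls with span and the 8 members called lower lie below it, while Grm2 and Grin2c lie above it. In the Dnmt3a mice (right) the line also falls with span, from 0.02 to -0.05, and no member was called.

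Transcript length went mostly with miR29Nestin library 1 and less with miR29Nestin library 2. The 7 members whose longest transcript reaches 8 kb (Gria2, Grik2, Grik3, Grin2a, Grin2b, Grm5 and Neto1) all lay below 0 in the miR29 mice, as did 71.3% of all 792 such genes, whose median was -0.09. In miR29Nestin library 1 the median deviation of these 792 genes from their own mean was -0.14, against -0.03 and 0.04 in the other mutant libraries and 0.01, 0.05 and 0.08 in the wild-type ones. Library 1 was the lowest of 6 for 6 of the 7 members, and Grik3 was the exception. Grik3 was lower to about the same extent in all 3 mutant libraries, and without library 1 its adjusted p was 0.00401. The other 6 differences were smaller in size without library 1, from -0.22 (Grin2a) to -0.03 (Neto1), and with the trends removed, from -0.15 (Grm5) to -0.04 (Grik2), and none of the 6 passed in either fit. The part of RNA quality was not tested.

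**Figure D4:**
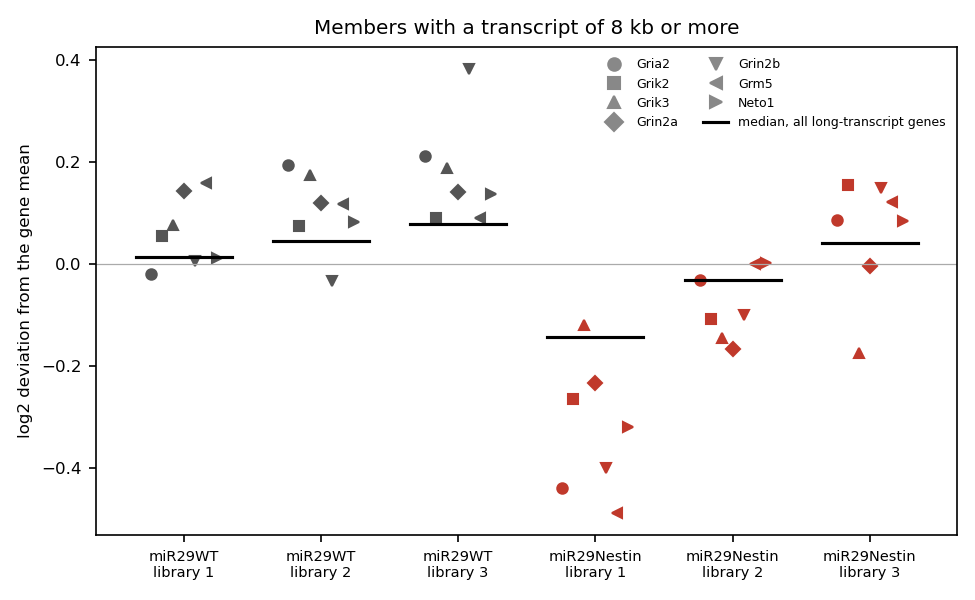
Deviation of each miR29 library from the gene's mean (log2) for the 7 members with a transcript of 8 kb or more, with the median over all 792 such genes as a bar. In miR29Nestin library 1 all 7 members lie below 0, from -0.49 to -0.12. Of the 7, 6 lie below 0 in miR29Nestin library 2 (from -0.17 to 0.003) and 2 in miR29Nestin library 3. In miR29WT libraries 1, 2 and 3 the numbers below 0 are 1, 1 and 0.

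In the Dnmt3a mice no member was called. Of 10097 genes tested, 12 passed (0.119%), 3 of them higher (0.0297%) and 9 lower (0.0891%), and of the 29 members tested 0 did, with Grin3b and Grm6 again under the filter. At an unadjusted p under 0.05 there were 4 members, against 15.1% of all genes. Differences ran from -0.11 to 0.21 with a median of -0.01, and the 95% intervals of all 29 members lay between -0.31 and 0.345. On the higher side lay 14 members, against 51.3% of all genes, and 15 lay below 0, against 48.7%. Groups did not overlap for 1 member on each side, against 5.42% of all genes on the higher and 6.84% on the lower side.

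The 4 members with the smallest p were Grm4, Grik2, Gria2 and Cnih3. Grm4 stood at 490.1, 361, 413 and 368 in Dnmt3a-mi5 and 330.1, 273, 308 and 349 in Dnmt3a-WT libraries, without overlap (difference 0.21, SE 0.06, adjusted p = 0.182). It lay above 0 in both models and passed in neither. Grik2 stood at 574, 522, 583 and 566 against 469.9, 537, 444 and 514 (difference 0.12, SE 0.04, adjusted p = 0.251).

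Gria2 stood at 6325, 6771, 6813 and 6871 in Dnmt3a-mi5 and 7667, 7196, 7201 and 7013 in Dnmt3a-WT libraries, the only member whose groups were apart on the lower side (difference -0.11, SE 0.04, adjusted p = 0.278). Cnih3 stood at 698, 769, 719.8 and 812 against 777, 936, 818 and 819 (difference -0.11, SE 0.05, adjusted p = 0.33). Its sign was opposite to that in miR29Nestin cortex. The other 2 members named for small p in the miR29 mice, Grip1 (-0.03) and Grid1 (-0.01), were near 0, as was Grik4 (-0.01).

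The 10 members called in miR29Nestin cortex were examined in the same libraries, and their groups overlapped in each case. Grin2c stood at 749, 596, 672 and 641 in Dnmt3a-mi5 and 666, 609, 645 and 654 in Dnmt3a-WT libraries (difference 0.03, SE 0.05, adjusted p = 0.831). Grm2 stood at 539, 728, 538 and 641 against 631, 514, 649.5 and 573 (difference 0.03, SE 0.07, adjusted p = 0.899). Their 95% intervals reached up to 0.14 and 0.19.

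Grik3 stood at 1530.2, 1464, 1610.2 and 1330.5 in Dnmt3a-mi5 and 1362.5, 1263.5, 1171 and 1531 in Dnmt3a-WT libraries (difference 0.13, SE 0.07, adjusted p = 0.426). Grik5 stood at 3468, 3218, 3303 and 3292 against 3042, 3178, 2991 and 3316 (difference 0.08, SE 0.04, adjusted p = 0.44). Shisa9 stood at 772, 612, 779 and 652 against 631, 716, 622 and 676 (difference 0.06, SE 0.06, adjusted p = 0.694). These 3 kainate and AMPA receptor genes, lower without miR-29, lay above 0 here without passing.

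Grin2a stood at 403, 416, 369 and 426 in Dnmt3a-mi5 and 497, 371, 453 and 435 in Dnmt3a-WT libraries (difference -0.07, SE 0.05, adjusted p = 0.585). Grin2d stood at 233, 198, 199 and 193 against 180.1, 181, 197 and 200.4 (difference 0.05, SE 0.04, adjusted p = 0.57). Grin3a stood at 519, 459, 505 and 556 against 437, 772, 529 and 558 (difference -0.10, SE 0.09, adjusted p = 0.682). The wild-type spread of Grin3a was the widest of these subunits, with library 2 above the rest.

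Grm3 stood at 933, 836, 1016 and 821 in Dnmt3a-mi5 and 1113, 927, 958 and 1008 in Dnmt3a-WT libraries (difference -0.11, SE 0.06, adjusted p = 0.414). Grm7 stood at 608, 513, 615 and 574 against 596, 661, 619 and 565 (difference -0.05, SE 0.05, adjusted p = 0.663). Both lay on the same side of 0 as in miR29Nestin cortex without passing.

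Across the 29 members the sign was the same in both models for 16 (55.2%), against 58.9% of the 10065 genes tested in both. Pearson's r across genes was 0.07 for the members and 0.28 for all genes, as a description, since genes are not independent replicates. Of 49 other glutamate synapse genes tested, 0 were called in the Dnmt3a mice (limma), 7 had an unadjusted p under 0.05, and 2 were lower without Dnmt3a-WT library 2. Of the marker lists, that of microglia summed to 2345 to 2678 in Dnmt3a-mi5 against 2717 to 2860 in Dnmt3a-WT libraries, without overlap. Of its 5 markers 1 was called lower (limma adjusted p = 0.033), against 0.0891% of all tested genes. All 5 striatal markers lay above 0 (median 0.35) with 0 called, and their sums overlapped at 3519.5 to 7603 against 3044 to 5192. Hippocampal dentate granule markers summed to 156 to 745 against 176.5 to 781. The part of these cell types in the member differences was not tested. Whether the 2 models differ in their effect on a member was not tested, because the tables were normalised separately. Age, kit and genotype also differ between the models.

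Levels of different members are comparable only per length. Per kb of the longest annotated transcript, miR29WT cortex held most of Grin1 (1614 normalised counts per kb), Cnih2 (1382), Gria1 (852) and Grik5 (832), and least of Grm6 (0.164), Grin3b (1.35) and Grin2a (8.22). The low value of Grin2a rests on an annotated transcript of 14.6 kb, and which transcripts were present was not examined. In Dnmt3a-WT cortex Grin2a stood at 30.0 per kb. Within classes, Gria1 led the AMPA subunits and Gria4 (273) was last, Grik5 led the kainate subunits and Grik1 (51.1) was last, and Grm3 (271) stood above Grm2 (218). In miR29Nestin cortex Grm2 (295 per kb) stood above Grm3 (218). In Dnmt3a-WT cortex Grm3 (329 per kb) stood above Grm2 (126), and Grin1 (1513), Cnih2 (1392) and Gria1 (906) again led the list.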

How the data were processed

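Per the labels' protocols, the authors made stranded mRNA libraries and read both ends for 50 cycles (RNeasy and TruSeq for the miR29 mice, Direct-zol and KAPA for the Dnmt3a mice). Tools named in the submitters' processing notes are DESeq2, Salmon, STAR and cutadapt, with the builds mm9 and hg19, without versions or roles. The authors deposited 2 tables of 24444 genes as log2 values, variance-stabilised by DESeq2 per the file names, each normalised on its own libraries. The labels do not state that each library is a separate mouse, so p-values measure the spread between these samples.

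Column names of the Dnmt3a table repeat, so its columns map to groups only and are numbered here in column order. In that table a 2-level effect had been removed: 2 sets of 4 libraries (2 of each group) had means equal within 5.5e-09 for every gene, against 0.791 for the next best sets. It entered the fit as a term. Normalised counts were recovered by inverting the transformation from the zero level (a log2 value of 6.59 and 7.63). To estimate read depth, each miR29 library was multiplied by a factor (0.77 to 1.2). It was chosen to bring low values (under 15 normalised counts) nearest to whole reads. With these factors 87.2 to 89.6% of the low values were whole reads to within 0.05. Among the Dnmt3a libraries 2546 genes had values below the zero level, and recovered counts are approximate.

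The tests used limma 3.58.1 under R 4.3.3 (moderated linear fits with a trended variance prior, Benjamini-Hochberg adjustment over all tested genes, called at an adjusted p under 0.05). A gene entered the test with a mean of 1 or more above that zero level, about 48 and 99 normalised counts. Residual degrees of freedom were 4 and 5. Same-numbered miR29 libraries deviated together (correlations across genes of 0.335, 0.204 and 0.186), although miR29Nestin library 3 correlated about as well with miR29WT library 2 (0.178). The deviations were taken from the mean of each group of 3, so these correlations do not establish a pairing. The labels give no source for a pairing. The fit reported has no block, and blocked values stand beside the results whose call they change. Alternatives were the block, other filters, variance priors and scaling, a term for Y-linked reads (present in 1 of 3 miR29Nestin and 2 of 3 miR29WT libraries), each library left out and, added after seeing the data, the same for the other glutamate synapse genes and the excitatory markers, and trends with transcript length and GC content removed by lowess. Spans, transcripts and 3′ UTRs came from GENCODE M21 (GRCm38), matched by symbol for all 31 members. Python 3.11.15, numpy 2.4.6, pandas 2.3.3 and matplotlib 3.10.9 made the summaries. The fits were tested on simulated data.

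Members, lists and tests were chosen with earlier results of these data known. Named are all called members, 6 further members with the smallest p, up to 8 called genes of the other glutamate synapse list and up to 2 called genes per marker list. Other members were named after their values were seen.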

Additional observations from a re-analysis of the deposited data

Results flagged for a closer look

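In the Dnmt3a table, 3 of 58 groups of 4 libraries held 1 library far from the other 3 by Dixon's criterion, where chance gives about 1 in 20. Grin2d stood at 233 in Dnmt3a-mi5 library 1, against 193 to 199 in the other Dnmt3a-mi5 libraries (gap over range 0.838). Grm5 stood at 2874 in Dnmt3a-WT library 2, against 2453 to 2518 in the others (0.834). Grip2, in the same Dnmt3a-WT library 2, stood at 263, against 319.5 to 329 in the others (0.870). None of the 3 genes was called in this table with or without these libraries. The miR29 groups have 3 libraries each and were not examined this way.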

How the results depend on the processing

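In the miR29 table the replicate block, for libraries that share a number, gave 4 members called higher and 11 lower (3037 genes in all). With trends of transcript length and GC content removed 5 members were higher and 7 lower, and with the block as well 6 and 8. Leaving out each library in turn gave 2 to 4 members higher, 6 to 11 lower and 1399 to 2314 genes in all. The lower end came without miR29WT library 2 (1399), miR29WT library 3 (1435) and miR29Nestin library 2 (1474). Under the filters, variance priors, scalings and count scale tried, 2 members were higher and 8 lower, except that the stricter filter left Grin2a and Grin2d untested. A term for Y-linked reads gave 2 and 10. The alternatives that kept every library called 1954 to 3076 genes in all, so member counts of different fits are not directly comparable. Of the other glutamate synapse genes, 2 to 5 were higher and 12 to 20 lower when each library was left out, and a variance prior without trend left 3 higher.

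For the Dnmt3a mice 0 members were called under every alternative. Of the other glutamate synapse genes, 2 were lower on group alone and 0 to 2 without 1 library. Among all genes the stricter filter left 4 called, the fit on group alone, with 1 residual degree of freedom too many, called 90, and leaving out each library gave 1 to 81, the highest without Dnmt3a-WT library 2. Without 1 library the sign turned for members near 0: Grin2c (-0.0194 to 0.0696), Grin3a (-0.189 to 0.0247), Grm2 (-0.0419 to 0.0738), Grid1 (-0.0592 to 0.0206), Grip1 (-0.0426 to 0.00489) and Grik4 (-0.0791 to 0.0418). The cause was not tested. No paired analysis was possible there because the column names repeat. Grin3b and Grm6 had too few counts for a test in both tables.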

Other observations

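Wild-type levels of some long receptor transcripts differed between the tables, which differ in age, kit and normalisation and were not tested against each other. As the log2 ratio of miR29WT over Dnmt3a-WT normalised counts, Grin2b stood at -2.21, Grin2a at -1.87, Grm5 at -1.24 and Gria2 at -0.88. The median was 0.41 over 5407 genes with transcripts under 4 kb, 0.18 over 3741 genes of 4 to 8 kb and -0.17 over 759 genes of 8 kb or more. Grik3, with a transcript of 8.97 kb, stood at 0.78, and Grip2 (0.85) and Grm2 (0.80) were also higher in miR29WT cortex.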
